A study of Saccharomyces cerevisiae with 8 samples.

Results

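Of the 8 libraries in the series, 4 came from heat-shocked budding yeast and were used to ask what changes in cells at 39 °C when Ifh1 has been depleted. The members were chosen by group label alone: 2 libraries labelled as heat shock with 5ph-IAA were set against 2 libraries labelled as heat shock without it. All cells were Saccharomyces cerevisiae W303a, kept at 30 °C in rich medium (YPD, 2% dextrose) until the OD600 was 0.2 to 0.4, and poly-A RNA was sequenced. In the group with 5ph-IAA, the treatment protocol describes 5 µM 5ph-IAA and 1 µM β-estradiol for 30 min to deplete Ifh1, and the cells were held at 39 °C for 5 min. 5ph-IAA is an auxin analogue that sends a degron-tagged protein to the proteasome. In the group without 5ph-IAA, cells of the same labelled strain were held at 39 °C for 5 min. The labels do not say whether these cells carried the tagged Ifh1 or received β-estradiol or solvent, and the design text of the series names anchor away, which removes a protein from the nucleus, as the method of depletion. The other 4 libraries, 2 at 30 °C with 5ph-IAA and 2 at 30 °C without it, share no library with the comparison at 39 °C and are used here for the common estimate of spread and for contrast.

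Ribosomes are built from rRNA, made by RNA polymerases I and III, and from ribosomal proteins, whose genes are transcribed by RNA polymerase II. In yeast, most ribosomal protein genes are bound by Rap1 and by Fhl1, and Fhl1 recruits the coactivator Ifh1. The genes for ribosome assembly factors are controlled through other promoter elements, named RRPE and PAC, to which repressors such as Stb3, Dot6 and Tod6 bind. Heat shock turns both sets of genes down for a time while the activators Hsf1 and Msn2/4 turn chaperone and stress genes up.

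The results below turn on these 2 sets of genes moving in opposite directions and on a few ribosomal protein genes that moved with the assembly genes, so stretches of their promoters are shown first. The letters are those of the RefSeq reference R64, which comes from strain S288C and not from W303a, and each is written 5′ to 3′ on the strand of its gene and ends upstream of the start codon. Capitals mark every match, on either strand, to 4 motifs: RRPE (AAAAATTT), PAC (GATGAG), a short form of the Fhl1 site (GACGC) and the Rap1 site (ACCCANACA). Matches of RRPE to its own reverse complement overlap where a run of A is followed by a run of T, and the 2 PAC matches of ARX1 share a base. RPF2 (chrXI:592640-592694, minus strand) and ARX1 (chrIV:657522-657601, minus strand) are the assembly genes with the 2 largest rises:
RPF2: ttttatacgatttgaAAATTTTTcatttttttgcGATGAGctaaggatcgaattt
ARX1: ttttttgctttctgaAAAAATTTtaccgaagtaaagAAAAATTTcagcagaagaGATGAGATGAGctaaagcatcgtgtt
RPL4A (chrII:299981-300077, plus strand), RPL4B (chrIV:471675-471709, plus strand) and RPL3 (chrXV:444465-444631, plus strand) are the ribosomal protein genes with the 3 largest rises. RPL4A and RPL3 hold RRPE in the stretch shown, and RPL4B holds neither RRPE nor PAC from 250 bases before to 50 after its start codon:
RPL4A: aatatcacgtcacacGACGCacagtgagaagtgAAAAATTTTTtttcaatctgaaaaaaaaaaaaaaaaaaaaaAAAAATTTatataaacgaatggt
RPL4B: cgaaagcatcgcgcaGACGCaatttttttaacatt
RPL3: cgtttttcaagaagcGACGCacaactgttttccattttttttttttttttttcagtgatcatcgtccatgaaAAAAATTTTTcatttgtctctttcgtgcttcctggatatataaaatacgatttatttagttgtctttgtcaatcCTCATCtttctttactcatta
RPS21B (chrX:157525-157559, minus strand), RPS22A (chrX:75472-75506, minus strand) and RPL9A (chrVII:228427-228654, minus strand) are among the 6 ribosomal protein genes with the largest falls. RPL9A was the 1 gene of these 6 with Rap1 letters in the 500 bases before its start codon, and they are the capitals near the 5′ end of its stretch:
RPS21B: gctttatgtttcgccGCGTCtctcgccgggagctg
RPS22A: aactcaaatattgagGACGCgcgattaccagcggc
RPL9A: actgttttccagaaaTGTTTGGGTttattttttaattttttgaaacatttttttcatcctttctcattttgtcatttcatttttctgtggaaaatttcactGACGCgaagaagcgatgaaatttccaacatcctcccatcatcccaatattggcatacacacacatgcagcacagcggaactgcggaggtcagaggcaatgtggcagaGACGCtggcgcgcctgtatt

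Depth differed between the groups. Total estimated counts were 10118860 and 9298953 in the libraries with 5ph-IAA at 39 °C, against 21025464 and 19974567 in those without it. With every library thinned to 7717767 counts, the comparison at 39 °C called 1181 genes higher and 1147 lower. The mating type of the labelled strain, a, could be checked: STE2, the receptor for alpha-factor, was at 156.4 and 165.5 TPM (transcripts per 1000000) with 5ph-IAA and at 73.6 and 76.3 TPM without it, while STE3, the receptor of alpha cells, was at 2.75 and 2.93 TPM with 5ph-IAA and at 3.95 and 4.06 TPM without it. The a-factor genes MFA1 and MFA2 are very short and were listed at 0 in all 8 libraries. IFH1 mRNA was at 13.7 and 14.3 TPM with 5ph-IAA and at 10.1 and 9.06 TPM without it (log2 fold change 0.26 ± 0.07, quasi-likelihood test in edgeR, Benjamini-Hochberg adjusted p = 0.00927, or up to 0.0974 with 1 library left out). The depletion acts on the protein, so this mRNA does not check the treatment label.

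With 5ph-IAA at 39 °C, 1292 of 5734 tested genes were higher and 1260 were lower at an adjusted p under 0.05 (edgeR), which is 44.5% of tested genes, 22.5% higher and 22% lower. Log2 fold changes are with 5ph-IAA over without it and carry their standard error, and the median over all tested genes was −0.003. Few of the changes were large: 139 genes (2.42%) were at least 2-fold higher and 147 (2.56%) at least 2-fold lower. Of the 147 large falls, 101 were ribosomal protein genes. Of the 139 large rises, 29 were genes of the small subunit processome, 32 were genes of large subunit assembly and 6 were subunits of RNA polymerase I or III. The balance of rises and falls depended on the scaling. With library totals in place of TMM factors the all-gene median was 0.14, and the calls were 2315 higher and 709 lower. It was 0.28 on log2(TPM + 1) with limma, where 3224 were higher and 371 lower. Changes below are therefore read against the median of all genes in the same fit.

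Ribosomal protein genes held a much smaller share of the transcriptome in heat-shocked cells with 5ph-IAA than in heat-shocked cells without it. The 137 genes together took 10.33% and 10.3% of TPM in the 2 libraries with 5ph-IAA, against 19.32% and 19.85% in the 2 without it. The difference of −9.27 percentage points, a ratio of 0.527, was far beyond the spread within either group, although an exact two-sided permutation test of 2 against 2 libraries gives p = 0.33, the smallest it can give. Both subunits took part. Genes of the large subunit held 5.84% and 5.82% with 5ph-IAA, against 10.71% and 11.01% without it. Genes of the small subunit held 4.49% and 4.47% with 5ph-IAA, against 8.62% and 8.84% without it.

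**Figure D1:**
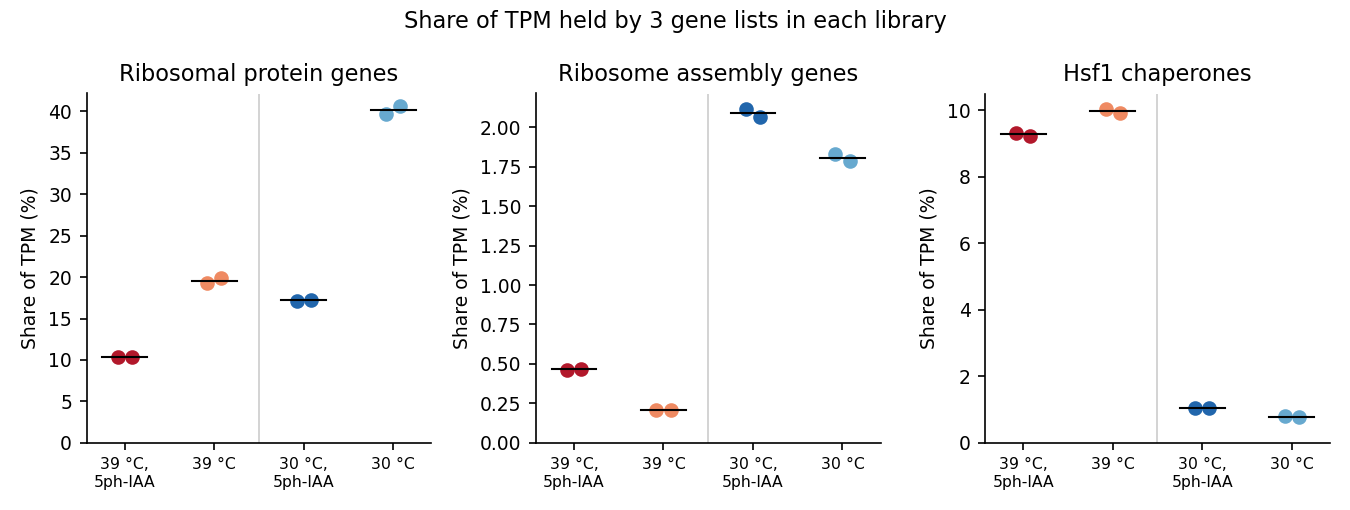
Share of TPM, in percent, held by ribosomal protein genes, ribosome assembly genes and Hsf1 chaperones in each of the 8 libraries (points), with the mean of each group of 2 as a line. At 39 °C the ribosomal protein share is 10.33% and 10.3% with 5ph-IAA, against 19.32% and 19.85% without it, while the assembly share is 0.463% and 0.468% with it, against 0.209% and 0.206% without it.

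Of the 131 ribosomal protein genes tested, 122 fell, 6 rose and 3 were not called (edgeR), with a median log2 fold change of −1.32. Across all tested genes 22% fell and 22.5% rose. The other 6 of the 137 (RPL29, RPL39, RPL41A, RPL41B, RPS29A and RPS29B) are very short and were not tested. The counts were 71 lower and 5 higher of 77 large subunit genes, with a median of −1.31, and 51 lower and 1 higher of 54 small subunit genes, with a median of −1.33. The median relative to all genes was −1.31 with TMM factors, −1.31 with library totals and −1.30 on log2(TPM + 1).

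RPS21B (YJL136C, chromosome X, 156550 to 157273 in R64), a small subunit protein, was at 859.9 and 839.1 TPM with 5ph-IAA and at 2917 and 2858 TPM without it. This was the largest fall of any ribosomal protein gene, −2.06 ± 0.05 (edgeR, adjusted p = 6.71e-11). RPL31B (YLR406C, chromosome XII, 931065 to 931755), a large subunit protein, was at 242.3 and 260.4 TPM with 5ph-IAA and at 782.3 and 786.5 TPM without it, a change of −1.94 ± 0.06. RPL9A (YGL147C, chromosome VII, 227754 to 228329), whose promoter letters are given above, was at 304.7 and 332.0 TPM with 5ph-IAA and at 872.7 and 919.1 TPM without it, a change of −1.79 ± 0.06. In each of these 3 genes both depleted libraries lay far below both others. RPL31A (−1.71 ± 0.05), RPS22A (−1.69 ± 0.05) and RPS26A (−1.68 ± 0.06) complete the 6 largest falls, and all had adjusted p-values under 2e-10 in edgeR. Kallisto divides reads between near-identical paralogs, so the values of single copies rest on that division. With the counts of paralogs summed there were 74 features, of which 72 fell and 2, RPL3 and RPL4, rose, with a median of −1.30.

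The fixed genes ASC1 and STM1, outside the list of subunits, fell as well. ASC1 (YMR116C), the scaffold protein on the small subunit, was at 337.2 and 334.8 TPM with 5ph-IAA and at 866.4 and 883.5 TPM without it (−1.67 ± 0.05, edgeR, adjusted p = 1.02e-10). STM1 (YLR150W), which clamps idle ribosomes, was at 753.9 and 759.8 TPM with 5ph-IAA and at 1222 and 1238 TPM without it (−0.99 ± 0.04).

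The rises among ribosomal protein genes were led by 2 proteins of the large subunit. RPL4A (YBR031W, chromosome II, 300166 to 301254) was at 665.3 and 669.2 TPM with 5ph-IAA and at 288.4 and 274.2 TPM without it (0.95 ± 0.04, edgeR, adjusted p = 9.51e-10). Its paralog RPL4B (YDR012W, chromosome IV, 471853 to 472941) was at 643.0 and 625.5 TPM with 5ph-IAA and at 304.3 and 311.7 TPM without it (0.75 ± 0.05). RPL3 (YOR063W, chromosome XV, 444686 to 445849), a single-copy gene, was at 1639 and 1682 TPM with 5ph-IAA and at 876.9 and 877.3 TPM without it (0.63 ± 0.04, adjusted p = 1.07e-08). In all 3 the groups were well apart, and the rise kept its call with any 1 library left out. The same 3 genes fell with 5ph-IAA at 30 °C, RPL4A by 0.87, RPL4B by 1.39 and RPL3 by 1.33 on the log2 scale, and the difference between the temperatures was called for each.

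The other 3 rises were smaller and belong to genes with a paralog that fell: RPS27A (0.41 ± 0.10), RPL15B (0.30 ± 0.10) and RPL9B (0.21 ± 0.07). The calls of RPL15B and RPL9B were lost with 1 library at 39 °C left out (edgeR, adjusted p up to 0.186 and 0.18). Summed with their paralogs these proteins had −1.31 (RPS27), −0.42 (RPL15) and −1.004 (RPL9). The smallest called falls were those of RPL1A (−0.28, but 0.01 on log2(TPM + 1)), RPS28A (−0.43) and RPL15A (−0.46), each a copy of a duplicated gene. RPL18B (0.06 ± 0.07), RPS9A (−0.17 ± 0.06) and RPS28B (−0.26 ± 0.26) were not called. Summed, RPL18 and RPS9 had −1.21 and −1.25.

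**Figure D2:**
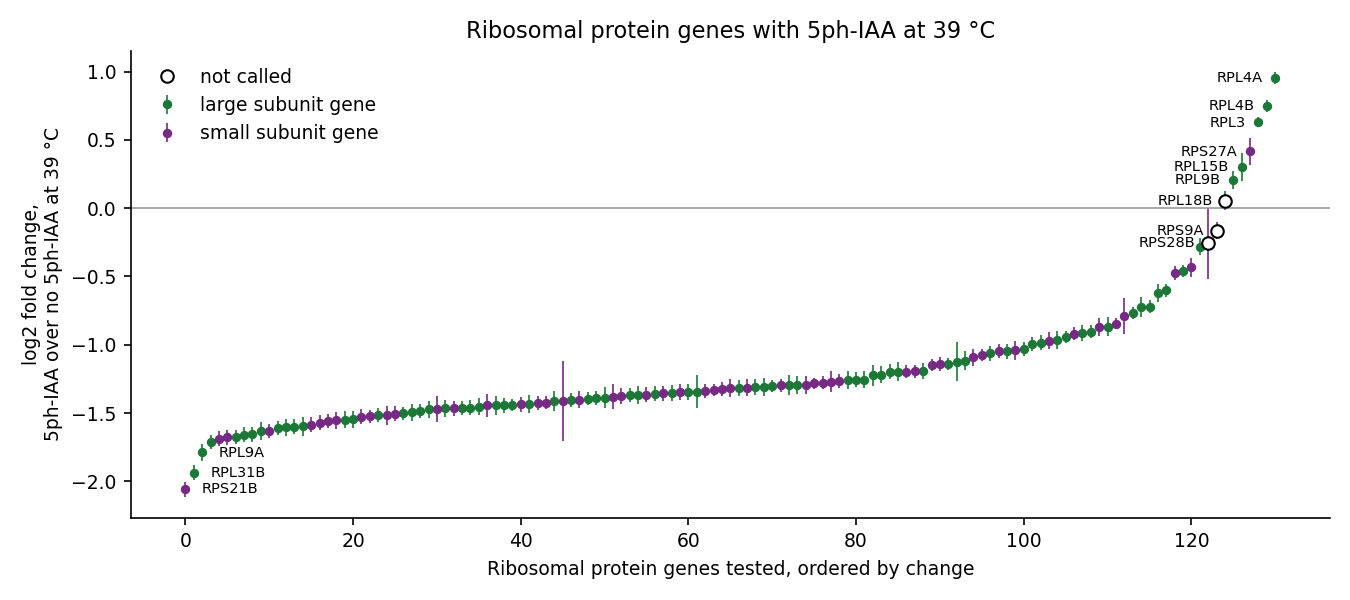
Log2 fold change with 5ph-IAA over without it at 39 °C, with its standard error, for the 131 ribosomal protein genes tested, ordered by change and coloured by subunit, with open circles for the 3 genes not called. Most genes lie between −1 and −1.7, with RPS21B lowest at −2.06 and RPL4A, RPL4B and RPL3 highest at 0.95, 0.75 and 0.63.

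Genes for assembling the ribosome moved the other way. In depleted cells at 39 °C they were about 2-fold higher than in cells without 5ph-IAA, on a low level: the 98 assembly genes together held 0.463% and 0.468% of TPM with 5ph-IAA and 0.209% and 0.206% without it, against 1.78% to 2.12% in the libraries at 30 °C. Of 45 genes of the small subunit processome, which cleaves and folds the precursor of the small subunit rRNA, 41 rose and 1 fell (edgeR), with a median of 1.11. Of 53 genes of large subunit assembly, 48 rose and none fell, with a median of 1.12. Across all tested genes 22.5% rose.

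RPF2 (YKR081C, chromosome XI, 591506 to 592540), which helps to place the 5S ribonucleoprotein in the early large subunit, was at 25.04 and 26.5 TPM with 5ph-IAA and at 6.02 and 5.604 TPM without it. Its rise of 1.85 ± 0.08 (edgeR, adjusted p = 9.09e-10) was the largest of any named gene. ARX1 (YDR101C, chromosome IV, 655686 to 657467), an export factor of the large subunit, was at 15.5 and 18.3 TPM with 5ph-IAA and at 3.97 and 4.07 TPM without it (1.77 ± 0.09). NOC2 (YOR206W, chromosome XV, 727512 to 729644), which escorts the early large subunit out of the nucleolus, was at 35.9 and 39.8 TPM with 5ph-IAA and at 10.2 and 9.36 TPM without it (1.66 ± 0.06). In all 3 the lower depleted library lay more than 3-fold above the higher library without 5ph-IAA. At 30 °C without 5ph-IAA these genes were far higher, RPF2 at 190.8 and 180.6 TPM, ARX1 at 161.4 and 153.5 TPM and NOC2 at 161.3 and 157.3 TPM, so the depleted cells at 39 °C remained well below that level.

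Within the small subunit processome, the largest rises were those of UTP13, at 6.77 and 6.68 TPM with 5ph-IAA and 1.79 and 1.61 TPM without it (1.69 ± 0.09), UTP4 (1.61 ± 0.07) and IMP3 (1.59 ± 0.15). NOP1, the methyltransferase of box C/D particles, had 1.30, and ERB1 and RIX1 of the large subunit pathway had 1.61 and 1.60. The RNA helicase RRP3, which was in none of these lists, rose by 1.65 ± 0.08. RCL1, an endonuclease-like processome protein, was the single member of either list that fell, at 14.7 and 12.2 TPM with 5ph-IAA and 16.2 and 14.9 TPM without it (−0.50 ± 0.10, edgeR, adjusted p = 0.00129, not called on log2(TPM + 1)). NSR1, the nucleolin-like rRNA processing factor, had 0.26 ± 0.09, a call lost with 1 library left out (edgeR, adjusted p up to 0.144) and with thinned counts. UTP20, SOF1 and RRP7 in the small subunit list and REI1, IPI1, NOG2, RRP15 and ALB1 in the large subunit list were not called.

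RNA polymerases I and III, which make the rRNA and tRNA, followed the assembly genes. Of 19 subunits 17 rose and none fell, beside 22.5% of all tested genes higher and 22% lower, with a median of 0.75. RPA43 (YOR340C, chromosome XV, 959202 to 960182), of the stalk of RNA polymerase I, was at 39.0 and 45.7 TPM with 5ph-IAA and at 11.2 and 10.6 TPM without it (1.66 ± 0.09, edgeR, adjusted p = 3.78e-09). RPA190, the largest subunit of RNA polymerase I, rose by 1.38 ± 0.05, RPA49 by 1.33 ± 0.06 and RPA135 by 1.29. The largest subunits of RNA polymerase III had smaller values, 0.30 for RPO31 and 0.52 for RET1, and RPC34 had 1.06. RPA14 and RPC17 were not called.

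Of all tested genes 22.5% rose and 22% fell. Dedicated chaperones of ribosomal proteins rose in 10 of 11 cases and fell in 1, with a median of 0.69. They included the chaperones of the proteins named above: RRB1, which binds newly made Rpl3, was at 84.9 and 91.5 TPM with 5ph-IAA and 35.7 and 33.5 TPM without it (1.06 ± 0.05, edgeR, adjusted p = 2e-09), and ACL4, which binds newly made Rpl4, had 0.75 ± 0.07. PUF6 (1.48 ± 0.08) and SYO1, which imports Rpl5 and Rpl11 (1.31 ± 0.10), rose most. YAR1, the chaperone of Rps3, was far more abundant than the others and fell, at 1242 and 1226 TPM with 5ph-IAA and 1338 and 1298 TPM without it (−0.39 ± 0.05, but −0.09 and not called on log2(TPM + 1)). Of 7 chaperones that work at the ribosomal exit, 5 rose and 1 fell, with a median of 0.36. ZUO1 rose by 0.65 ± 0.04 and SSZ1 by 0.49 ± 0.05, while EGD1 had −0.17 ± 0.06 but 0.13 on log2(TPM + 1).

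The machinery that uses ribosomes rose by less. Of 31 translation factors 22 rose and 5 fell, with a median of 0.38. Of 20 aminoacyl-tRNA synthetases 19 rose and none fell, with a median of 0.36. Across all tested genes 22.5% rose and 22% fell. YEF3, the fungal elongation factor, was at 676.9 and 689.4 TPM with 5ph-IAA and at 326.7 and 330.3 TPM without it (0.76 ± 0.04, edgeR, adjusted p = 2.44e-09). RPG1, an initiation factor subunit, rose by 0.69 ± 0.05 and TIF3, an initiation cofactor, by 0.67 ± 0.05. The falls were those of the helicase DED1, at 130.1 and 126.2 TPM with 5ph-IAA and 162.5 and 152.4 TPM without it (−0.59 ± 0.05), and of EFB1 (−0.23), HYP2 (−0.21), TEF2 (−0.17) and EFT2 (−0.13). The last 4 were above 0 on log2(TPM + 1). TEF2 and EFT2 have near-identical copies that were called higher, TEF1 (0.41) and EFT1 (0.67). The values of these single copies are therefore uncertain.

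**Figure D3:**
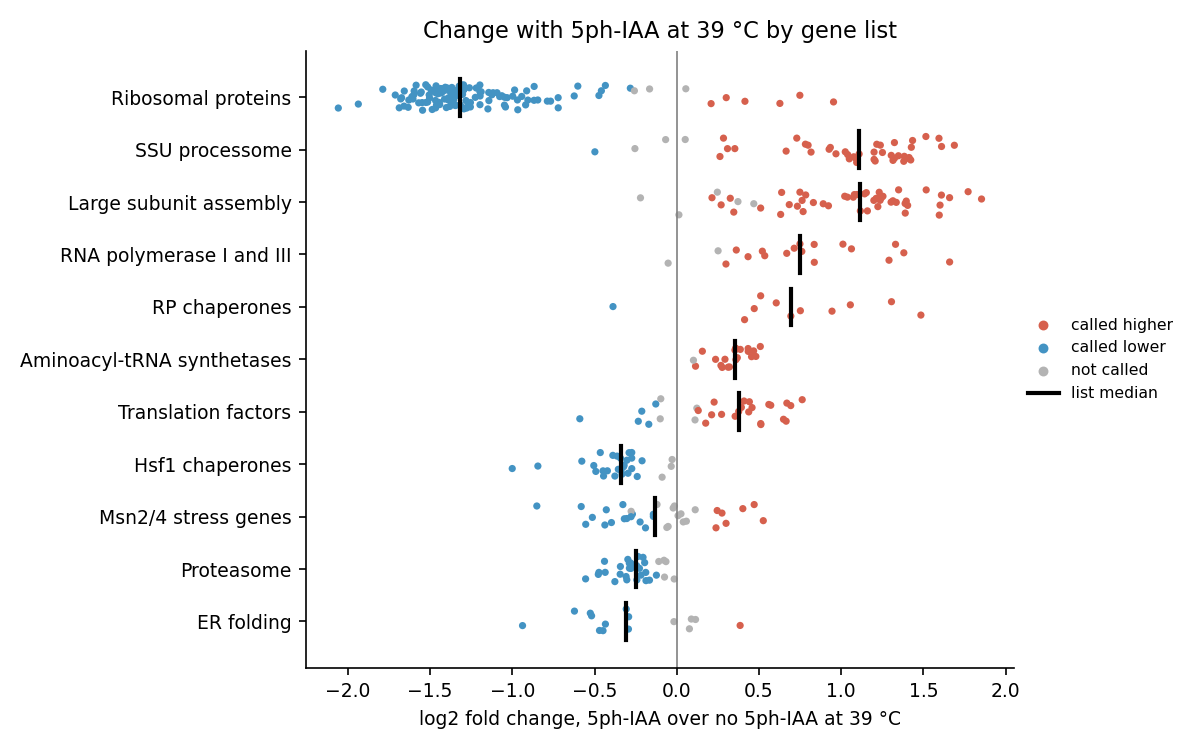
Log2 fold change with 5ph-IAA over without it at 39 °C for the members of 11 gene lists (1 point a gene), in red where called higher, in blue where called lower and in grey where not called, with the median of each list as a black bar. Ribosomal proteins have a median of −1.32, the 2 assembly lists have 1.11 and 1.12, and the Hsf1 chaperones have −0.34.

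Of 11 regulators of these genes, 4 rose and 3 fell at the level of mRNA, beside 22.5% of all tested genes higher and 22% lower, with a median of 0.07. On log2(TPM + 1) 7 were higher and none lower. TOD6, a repressor that binds PAC, was at 13.8 and 12.6 TPM with 5ph-IAA and at 5.15 and 4.70 TPM without it (1.13 ± 0.09, edgeR, adjusted p = 3.84e-07). Its relative DOT6 was at 138.2 and 138.5 TPM with 5ph-IAA and at 136.4 and 139.1 TPM without it (−0.29 ± 0.05, but 0.01 on log2(TPM + 1)). STB3, which binds RRPE, had −0.15 ± 0.05, and HMO1, a DNA-bending protein at ribosomal genes, had −0.23 ± 0.06. Both of these were above 0 on log2(TPM + 1). FHL1 (0.22 ± 0.10), RAP1 (−0.05 ± 0.06), SFP1 (0.07 ± 0.05) and CRF1 (−0.14 ± 0.13) were not called.

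The motifs printed above were searched on both strands from 250 bases before to 50 after the start codon of 6000 genes in R64, of which 5721 were tested. RRPE was found in 14.17% and PAC in 20.37% of all these promoters. Among the 98 assembly genes the shares were 85.71% and 92.86%. Of the 333 tested genes with both motifs, 68.77% rose and 6.01% fell, with a median of 0.52, and no RRPE match shared bases with a PAC match. Of the 4061 tested genes with neither, 17.34% rose and 23.86% fell, with a median of −0.03. The pattern did not rest on the ribosomal protein, assembly and polymerase lists alone. Outside these lists, 59.58% of 240 genes with both motifs rose, against 17.66% of 3959 genes with neither. Chaperones of ribosomal proteins, translation factors, synthetases and unlisted genes of ribosome making, such as RRP3, were not set aside. RRPE without PAC went with 35.05% of 505 genes higher, and PAC without RRPE with 22.14% of 822 genes higher, close to the 22.5% of all tested genes.

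Most ribosomal protein genes fell, both with the Rap1 or RRPE letters and without them. The Rap1 letters were found within 500 bases before the start codon in 45 of 137 ribosomal protein genes, against 3.1% of all promoters. All 45 fell, with a median of −1.39. Of the 71 tested ribosomal protein genes with neither Rap1 nor Abf1 letters in that window, 65 fell and 4 rose, with a median of −1.31, and RPS21B, with the largest fall, and RPL3 were both among them. RPL4A and RPL4B had no Rap1 letters there either. RRPE letters were present, from 250 bases before to 50 after the start, in 18 tested ribosomal protein genes, of which 3 rose and 13 fell, with a median of −0.92. In the 113 tested genes without them 3 rose and 109 fell, with a median of −1.35. In the 500 bases before the start the gap was smaller: 35 genes held RRPE, of which 4 rose and 29 fell, with a median of −1.22, and of the 96 without it 2 rose and 93 fell, with a median of −1.34. RPL3 was the 1 ribosomal protein gene with both RRPE and PAC in the shorter window, while 7 held both in the longer one, of which 1 rose and 6 fell, with a median of −1.41. Letters of the Abf1 site, searched after RPL4A and RPL4B had been seen to rise, were present without Rap1 letters in 15 tested ribosomal protein genes, RPL4A and RPL4B among them, of which 12 fell and 2 rose. A match of letters is a description and not evidence that a factor was bound. The lack of a match is likewise not evidence that none was bound. Most of these genes are bound by Rap1 in yeast, yet 45 of 137 held its letters, so the genes without them cannot stand for unbound genes.

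**Figure D4:**
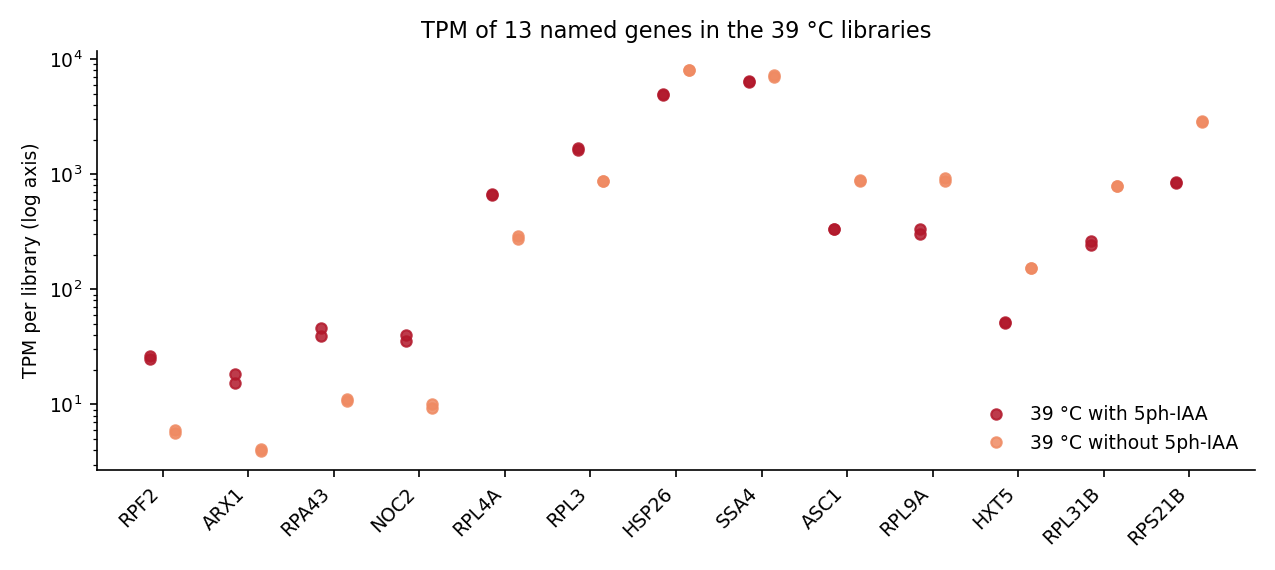
TPM in each of the 4 libraries at 39 °C, on a log axis, for 13 named genes, with the 2 libraries with 5ph-IAA to the left of the 2 without it. The assembly and polymerase genes RPF2, ARX1, RPA43 and NOC2 and the ribosomal protein genes RPL4A and RPL3 are higher with 5ph-IAA, and the other 7 genes are lower, with no overlap between the groups. The groups did not overlap in TPM for 4838 of all 5734 tested genes, and some named genes were picked for not overlapping.

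Chaperone genes, the main targets of Hsf1, were slightly lower in depleted cells than in cells without 5ph-IAA, both at a high level. The 29 genes together held 9.33% and 9.22% of TPM with 5ph-IAA and 10.04% and 9.92% without it, against 0.770% to 1.05% in the libraries at 30 °C. None rose and 26 fell (edgeR), with a median of −0.34, beside 22% of all tested genes lower. On log2(TPM + 1) the median was −0.05, with 3 genes higher and 9 lower, although relative to all genes it was −0.33. HSP26, a small heat shock protein, was at 5011 and 4833 TPM with 5ph-IAA and at 7991 and 8080 TPM without it (−1.0004 ± 0.05, edgeR, adjusted p = 2.44e-09). SSA3, an inducible Hsp70, was at 248.1 and 238.1 TPM with 5ph-IAA and at 364.2 and 348.5 TPM without it (−0.84 ± 0.04). SSA4, the most heat-inducible Hsp70, was at 6473 and 6304 TPM with 5ph-IAA and at 7341 and 7054 TPM without it (−0.46 ± 0.04). These 3 genes were lower on every scale tried, while HSP82, the inducible Hsp90, was at 5127 and 5041 TPM with 5ph-IAA and at 5065 and 4966 TPM without it (−0.27 ± 0.04 with TMM factors and 0.02 on log2(TPM + 1)). HSP42 (−0.29) was likewise near 0 on log2(TPM + 1). The regulator HSF1 had −0.26 ± 0.05, or 0.04 on log2(TPM + 1).

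General stress genes, targets of Msn2 and Msn4, were split. Of 34 genes tested 7 rose and 16 fell, with a median of −0.13, which was 0.01 with library totals and 0.16 on log2(TPM + 1). HSP12, a membrane-stabilising stress protein, was at 8223 and 7669 TPM with 5ph-IAA and at 11542 and 11850 TPM without it (−0.85 ± 0.06, edgeR, adjusted p = 1.69e-07). RGI1, of energy metabolism, fell by 0.55 ± 0.04 and NQM1, a transaldolase, by 0.58 ± 0.09 on the log2 scale. Genes of glycogen and trehalose synthesis were divided, and those named here were chosen after their values were seen. GSY2, a glycogen synthase, had 0.53 ± 0.04, GLC3, the branching enzyme, had 0.40, and TSL1, of the trehalose synthase complex, was at 1379 and 1370 TPM with 5ph-IAA and at 926.8 and 895.8 TPM without it (0.30 ± 0.04). The other glycogen synthase gene GSY1 (0.04) and the trehalose synthesis genes TPS1 (0.06) and TPS2 (−0.05) were not called. TMA10, a ribosome-associated stress protein outside the lists, was at 10118 and 10086 TPM with 5ph-IAA and at 12772 and 12513 TPM without it (−0.62 ± 0.04). Of 7 stress regulators 1 rose and 4 fell, but 2 were higher and 1 lower with library totals, and 3 and 0 on log2(TPM + 1). Over all 5734 tested genes the calls were 1292 higher and 1260 lower with TMM factors. They were 2315 and 709 with library totals, and 3224 and 371 on log2(TPM + 1). MSN2 had −0.24 ± 0.05, but 0.05 on log2(TPM + 1), and MSN4 had 0.15 ± 0.05.

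Of 32 proteasome genes 27 were lower and none higher, beside 22% of all tested genes lower and 22.5% higher. Proteasome genes were only slightly lower, with a median of −0.25. This direction depended on the scaling, since the median was 0.04 on log2(TPM + 1), where 6 were higher and 2 lower. Relative to all genes it was −0.25 with TMM factors and −0.24 on log2(TPM + 1). PRE1, a subunit of the core particle, fell by 0.55 ± 0.06 and RPN8, of the lid, by 0.48 ± 0.05. Genes of protein folding in the endoplasmic reticulum fell in 10 of 15 cases and rose in 1, with a median of −0.31, or −0.01 on log2(TPM + 1). SIL1, the exchange factor of Kar2, was at 77.6 and 84.7 TPM with 5ph-IAA and at 127.8 and 125.7 TPM without it (−0.94 ± 0.06). KAR2 itself was at 3406 and 3326 TPM with 5ph-IAA and at 3738 and 3757 TPM without it (−0.45).

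Metabolic and other lists had medians from −0.28 for drug export genes to 0.32 for phosphate genes. The balance of their calls turned with the scaling in most. Over all 5734 tested genes the calls were 1292 higher and 1260 lower with TMM factors. They were 2315 and 709 with library totals, and 3224 and 371 on log2(TPM + 1). Medians relative to all genes moved little. Under these 3 scalings glycolysis and fermentation had −0.20, −0.20 and −0.19, and amino acid synthesis had −0.12, −0.12 and −0.11. Glycolysis and fermentation had 2 genes higher and 11 lower of 16 (median −0.21, but 0.09 on log2(TPM + 1)), led by the minor glyceraldehyde phosphate dehydrogenase TDH1, at 159.2 and 142.8 TPM with 5ph-IAA and 265.9 and 272.6 TPM without it (−1.13 ± 0.08). Amino acid synthesis had 4 higher and 16 lower of 33 (median −0.13, but 0.17 on log2(TPM + 1)), with ILV3, of branched-chain synthesis, at 1.13 ± 0.06 and HIS4, of histidine synthesis, at −0.78 ± 0.05. Methionine and sulfur genes had 3 higher and 5 lower of 22, but 10 and 3 with library totals and 11 and 3 on log2(TPM + 1), with MET14 at −0.90 ± 0.10. Sterol synthesis had 13 higher and 3 lower of 23 (median 0.16), with ERG24 at 0.69 ± 0.06. Oxidative phosphorylation had 5 higher and 13 lower of 33, but 20 higher and 2 lower on log2(TPM + 1), and the mitochondrial ribosome had 5 higher and 9 lower of 66, but 26 and 2 with library totals and 49 and 0 on log2(TPM + 1). Phosphate genes had 9 higher and 2 lower of 13 (median 0.32). Their largest changes were opposed, the transporter PHO84 at 28.9 and 36.0 TPM with 5ph-IAA and 11.9 and 10.6 TPM without it (1.23 ± 0.09) and the transporter PHO89 at 3.56 and 3.38 TPM with 5ph-IAA and 6.48 and 5.84 TPM without it (−1.12 ± 0.13). Drug export genes had 1 higher and 8 lower of 11, but 3 and 0 on log2(TPM + 1), and galactose genes 0 higher and 4 lower of 8, but 2 and 1. Histones had 1 higher and 4 lower of 10, but 3 and 2 with library totals and 7 and 2 on log2(TPM + 1), with the linker histone HHO1 at 0.44 ± 0.05 and the core histone HHF2 at −0.64 ± 0.05.

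Mating-type genes moved although the cells are all labelled as mating type a. All 5 a-cell genes tested rose, with a median of 0.77, and of 4 alpha-cell genes tested none rose and STE3 fell (−0.79 ± 0.25, edgeR, adjusted p = 0.0212). The call of STE3 was lost with any 1 library at 39 °C left out (edgeR, adjusted p up to 0.121), and on log2(TPM + 1) 2 alpha-cell genes were higher and none lower. STE6, the exporter of a-factor, was at 27.9 and 29.0 TPM with 5ph-IAA and at 10.3 and 10.6 TPM without it (1.15 ± 0.05, adjusted p = 1.7e-09), and STE2 had 0.81 ± 0.05. Of 17 genes of meiosis and sporulation, which mark another state, 1 rose and 3 fell, but 2 were higher and 1 lower on log2(TPM + 1). Over all 5734 tested genes the calls were 1292 higher and 1260 lower with TMM factors, and 3224 and 371 on log2(TPM + 1).

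Among single genes outside the ribosome, HXT5, a hexose transporter of slow-growing cells, was at 51.5 and 51.2 TPM with 5ph-IAA and at 154.4 and 152.1 TPM without it (−1.87 ± 0.07, edgeR, adjusted p = 1.34e-10). ARO10, a decarboxylase that makes fusel alcohols, was at 267.3 and 255.3 TPM with 5ph-IAA and at 672.3 and 652.4 TPM without it (−1.63 ± 0.04). DIA1, a gene of invasive growth, was at 81.5 and 79.5 TPM with 5ph-IAA and at 246.7 and 241.8 TPM without it (−1.89 ± 0.06). HXT6, a high-affinity hexose transporter, was at 366.6 and 406.1 TPM with 5ph-IAA and at 96.0 and 84.6 TPM without it (1.80 ± 0.12). In all 4 the libraries of each group lay close together and far from the other group. MNC1 had one of the larger falls (−2.04) but uneven libraries, at 82.0 and 19.9 TPM with 5ph-IAA and 151.9 and 198.7 TPM without it, and the target YPR145C-A had −2.05. The value of HXT6 is uncertain, since HXT7 is a near-identical copy.

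The change with 5ph-IAA at 39 °C was not the change at 30 °C on a smaller scale. At 30 °C the calls with 5ph-IAA were 1351 higher (23.6%) and 1614 lower (28.1%), and the difference between the changes was called above 0 for 1490 genes (26%) and below 0 for 1315 (22.9%) of 5734 tested (edgeR). Ribosomal protein genes fell at both temperatures, with a median of −1.32 at 39 °C and −2.01 at 30 °C, and the difference was above 0 for 129 of 131 genes. The Msn2/4 stress genes had medians of −0.13 at 39 °C and 0.92 at 30 °C, and 29 of 34 had a difference below 0. The Hsf1 chaperones had medians of −0.34 at 39 °C and −0.05 at 30 °C, with 20 of 29 differences below 0.

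Assembly genes had the largest median difference between the temperatures of the lists described, 1.55, and 83 of 98 were called higher at 39 °C and lower at 30 °C. The same held for 19 of 20 aminoacyl-tRNA synthetases and 10 of 11 chaperones of ribosomal proteins with TMM factors. At 30 °C the synthetases had 6 higher and 9 lower with library totals, and 12 and 4 on log2(TPM + 1). The chaperones of ribosomal proteins had 2 and 2, and 9 and 0. Relative to all genes the medians at 30 °C were −0.46 and −0.44 for the synthetases and −0.30 and −0.28 for the chaperones. The assembly median was 1.11 at 39 °C and −0.43 at 30 °C, where 89 of 98 fell, and the difference was above 0 for 93 of 98. The fall at 30 °C depended on the scaling, as the median was −0.03 with library totals and 0.22 on log2(TPM + 1) (all genes 0.61). The rise at 39 °C did not, with medians of 1.26 and 1.31 under these 2 scalings, and the median of the difference was 1.30 and 1.13. Over all genes, 543 were called higher at 39 °C and lower at 30 °C, which is 42.0% of the 1292 rises at 39 °C and 33.6% of the 1614 falls at 30 °C. A further 526 were lower at both temperatures, 41.7% of the falls at 39 °C and 32.6% of those at 30 °C. These counts hold for TMM factors. Only 503 genes were lower at 30 °C with library totals and 276 on log2(TPM + 1).

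**Figure D5:**
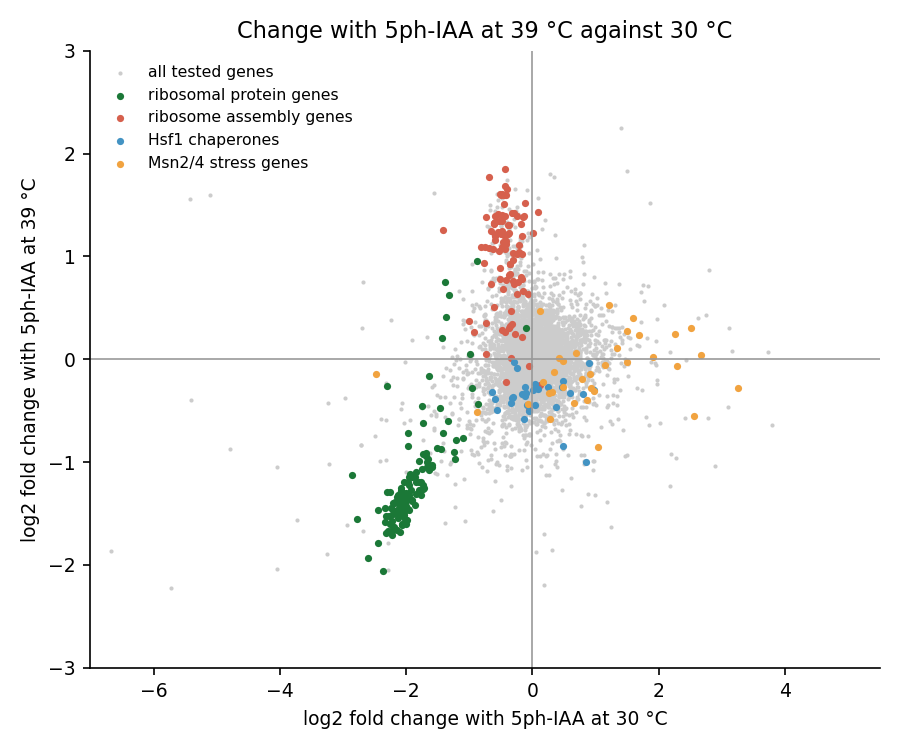
Log2 fold change with 5ph-IAA over without it at 39 °C (vertical axis) against the same at 30 °C (horizontal axis) for tested genes, with 4 lists in colour and 15 of 5734 genes beyond the axes. Ribosomal protein genes lie at the lower left, with medians of −1.32 at 39 °C and −2.01 at 30 °C, and assembly genes lie above 0 at 39 °C and slightly below 0 at 30 °C, with medians of 1.11 and −0.43.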

How the data were processed

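Poly-A RNA libraries were made with TruSeq RNA v2, per the labels' protocols, a kit that does not mark strand, so reads of overlapping genes on opposite strands cannot be told apart. The authors deposited estimated counts and TPM values for 6034 coding targets per library. The submitters' processing notes name kallisto, and its version, transcript set and genome build were not given in the sources used here. Of these target lengths, 6018 equal the R64 coding length of the same gene, and 939 targets had no symbol. Kallisto shares ambiguous reads among targets, which left 6.89% to 7.51% of the estimated counts more than 1e-06 from a whole number.

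The estimated counts were rounded and tested with edgeR 4.0.16 (R 4.3.3; TMM, filterByExpr, quasi-likelihood F test, Benjamini-Hochberg over 5734 genes, threshold 0.05) in 1 fit of all 8 libraries with 4 groups and 4 residual degrees of freedom. This fit gave 3 contrasts: 5ph-IAA at 39 °C, 5ph-IAA at 30 °C and their difference. Shares and levels come from the deposited TPM. The labels give the replicates the letters A and B and say nothing of separate cultures. The p-values therefore cover only the spread among these libraries, which may be technical. Alternatives were library totals, median-of-ratios factors, TMM without ribosomal protein genes, DESeq2 1.42.0, limma 3.58.1 on log2(TPM + 1), no filter, the 39 °C libraries alone, thinned counts, a replicate block, summed paralogs and each library left out. The fit was tested on simulated data.

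Genes were described by 28 lists, with counts and medians and no test of a list. The comparison, the lists and the motifs were chosen with earlier results of these data known. Genes are named by rule: the 8 largest changes each way with a mean of at least 10 TPM whose groups do not overlap and whose sign holds with any library left out, up to 3 members of each list with the largest change, up to 5 members called against their list, the ribosomal protein genes with the 6 largest falls, the 6 smallest called changes or no call, the 4 smallest p-values, the 5 largest differences between temperatures each way and a list of fixed genes. Differences between temperatures were ranked among genes with a called difference and a mean of at least 10 TPM over 8 libraries. Other genes (NOP1, ERB1, RIX1, RPA135, RPO31, RET1, RPC34, ACL4, TEF1, EFT1, KAR2, GLC3, TSL1, GSY1, TPS1, TPS2 and the members not called) were chosen after their values were seen. Promoters were read from the R64 genome.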

Additional observations from a re-analysis of the deposited data

Results flagged for a closer look

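For 791 genes the change with 5ph-IAA was called in opposite directions at 39 °C and at 30 °C, and the difference between the 2 changes was called as well (edgeR quasi-likelihood test of the difference, Benjamini-Hochberg adjustment). This count holds for TMM factors, as 503 genes were lower at 30 °C with library totals and 276 on log2(TPM + 1). The values below are the change at 39 °C minus the change at 30 °C on the log2 scale, each called at an adjusted p under 0.05.

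Among genes for making ribosomes the differences were 2.46 for ARX1, 2.28 for RPF2, 2.10 for UTP4, 2.06 for NOC2, 1.94 for RPA43, 1.76 for NOG1 and 1.18 for NSR1. Among ribosomal protein genes they were 2.14 for RPL4B, 1.95 for RPL3 and 1.83 for RPL4A, which are the genes that rose at 39 °C and fell at 30 °C. IFH1 itself had 0.79.

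Of 29 Hsf1 chaperones, 20 had a called difference below 0 and 4 above 0. Of 34 Msn2/4 stress genes, 29 were below and 3 above. The chaperone and stress genes flagged here had differences below 0. These were −3.10 for RGI1, −2.64 for TMA10, −1.85 for HSP26, −0.93 for HSP104, −0.84 for SSA4, −0.84 for MSN2 and −0.74 for HSP82. The decarboxylase ARO10 had −2.88, with a rise of 1.24 at 30 °C and a fall of 1.63 at 39 °C.

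Differences were ranked among genes with a mean of at least 10 TPM over the 8 libraries and a called difference. The largest of these belong to genes whose change at 30 °C was large or which are short or repeated. They were 5.02 for BSC1, 3.92 for its neighbour PRM7 and 3.43 for the polyamine transporter TPO2. The Ty element target YER160C had 4.80 and YGR027W-A had 3.17, YHR054C had −3.93, YGR035C had −3.11 and YKL104W-A had −2.80. In YGR027W-A the TPM values were 36.3 and 16.1 with 5ph-IAA and 2.17 and 11.9 without it at 39 °C, so the libraries of each group lay far apart.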

How the results depend on the processing

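A turn of direction was counted only where the main fit or the alternative called the gene. So counted, 20 of the 166 named genes turned direction on log2(TPM + 1) with limma and 2 with library totals. None did under the other settings run. On log2(TPM + 1) these were HSP42 (0.0034), PHO8 (0.0077), DOT6 (0.0062), RPL1A (0.0121), HSP82 (0.0196), GAL10 (0.0364), HSF1 (0.0367), MVD1 (0.0399), SKN7 (0.0447), MSN2 (0.0530), EFB1 (0.0607), HMO1 (0.0645), HYP2 (0.0806), TEF2 (0.12), EGD1 (0.13), STB3 (0.14), ERG5 (0.14), ERG1 (0.15), EFT2 (0.17) and RAP1 (0.24). With library totals they were ERG1 (0.0037) and EFT2 (0.0179). All 20 values on log2(TPM + 1) lay below the all-gene median of that fit, 0.28. The 2 values with library totals lay below the all-gene median of 0.14. Relative to all genes, these genes therefore stayed on the lower side. Under library totals and under limma on log2(TPM + 1), 2315 and 3224 genes were higher and 709 and 371 lower with 5ph-IAA at 39 °C, 3962 and 4865 higher and 503 and 276 lower at 30 °C, and the difference was above 0 for 908 and 685 and below 0 for 2550 and 2948. The proteasome had 16 and 2 genes lower. On log2(TPM + 1) alone, 220 genes were at least 2-fold higher and 89 lower, and 9 Hsf1 chaperones and 4 Msn2/4 stress genes were lower. The all-gene median at 39 °C was −0.003 with TMM factors, 0.14 with library totals and 0.28 on log2(TPM + 1). The ribosomal protein share of the estimated counts differed by −3.41 percentage points. With RRPE and PAC searched in the 500 bases before the start, a window chosen after seeing the data, 56.37% of 502 genes with both were higher.

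With 1 library left out, genes higher at 39 °C ranged over 1022 to 1333 and lower over 969 to 1308, at least 2-fold higher over 135 to 142 and lower over 138 to 155. At 30 °C the ranges were 1138 to 1388 higher and 1367 to 1621 lower, and for the difference 1333 to 1395 above 0 and 1084 to 1225 below. The lists ranged over 122 to 123 ribosomal protein genes lower, 38 to 41 processome, 47 to 48 large subunit assembly, 15 to 17 polymerase and 19 to 22 translation factor genes higher, and 26 to 27 Hsf1 chaperones, 13 to 16 Msn2/4 stress genes and 24 to 27 proteasome genes lower. The share difference ranged from −9.54 to −9.01 points. A fit that leaves 1 library in a group assumes that it varies like the others.

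Libraries of the same letter in the 39 °C groups deviated together with a correlation of 0.095. This low value cannot show whether they shared a culture or batch, which the labels do not give. With a replicate block 1292 genes were higher and 1261 lower. Having 2 libraries a group and the lower depth with 5ph-IAA limit what small changes can show.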
